A study of Mus musculus with 2 samples.

Results

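The cyclin-dependent kinase (CDK) inhibitors of the mouse are 7 genes: Cdkn1a, Cdkn1b and Cdkn1c of the CIP/KIP family, and Cdkn2a, Cdkn2b, Cdkn2c and Cdkn2d of the INK4 family. They were found by gene symbol and identifier among the 21474 protein-coding genes of the tables, as a family defined by name and not by a threshold on their values, and 13 transcripts were listed for them. The cells were G1E-ER4, an immortalized mouse erythroid line, labelled male, without a working Gata1 gene of its own, to which a fusion of Gata1 with the hormone-binding part of the estrogen receptor has been added. Both libraries of the series came from such cells after 7 hours in 10 nM 17beta-estradiol, which activates the fusion. PolyA-selected RNA was sequenced to 59610969 expected counts in replicate 1 and 44689405 in replicate 2. Untreated cells and other times were not analysed here, so levels are described and a change with estradiol cannot be given. The libraries are numbered as biological replicates but cite a single sample record, so their spread may be that of the technique.

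Of 10 erythroid markers, 9 reached a TPM (a share of all transcripts, corrected for length) of 1 in each library. Klf1, an erythroid transcription factor, stood at a TPM of 984.09 and 1394.03. The exception was Slc4a1, the band 3 anion exchanger of mature red cells, at 0.52 and 0.36. Of 30 markers of other cell types, 7 reached that level and 10 had no count in either library. The highest were the platelet glycoprotein genes Gp1ba, at 52.56 and 52.67, and Gp5, at 32.56 and 39.57, and the myeloid factor Spi1, at 25.33 and 25.65. Their part in the levels of the inhibitors was not tested.

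CDKs drive the cell cycle when bound to cyclins, and the inhibitors hold them back. INK4 proteins bind Cdk4 and Cdk6 and keep D-type cyclins from them. CIP/KIP proteins bind whole cyclin-CDK complexes, Cdk2 complexes among them, and can also help cyclin D and Cdk4 to assemble. In maturing erythroid cells the last divisions are coupled to differentiation, and members of both families are known to take part in leaving the cycle. Much of the control of p27, the product of Cdkn1b, lies in translation and protein breakdown, and no protein was measured here.

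The 4 members Cdkn1a, Cdkn2c, Cdkn1b and Cdkn2d were detected, here meaning a TPM of 1 or more in each library, and the 3 members Cdkn1c, Cdkn2a and Cdkn2b were not. Over all protein-coding genes, 38.3% were detected by the same rule. The summed TPM of the 7 members was 283.76 and 282.74 in replicates 1 and 2, with a mean of 283 ± 0.721 (SD, n = 2). Within that near-equal sum the libraries split the total differently. Cdkn1a made up 40.8% and 34.2% of it, Cdkn2c 28.4% and 33.7%, Cdkn1b 23.2% and 27.2%, and Cdkn2d 7.63% and 4.89%.

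**Figure D1:**
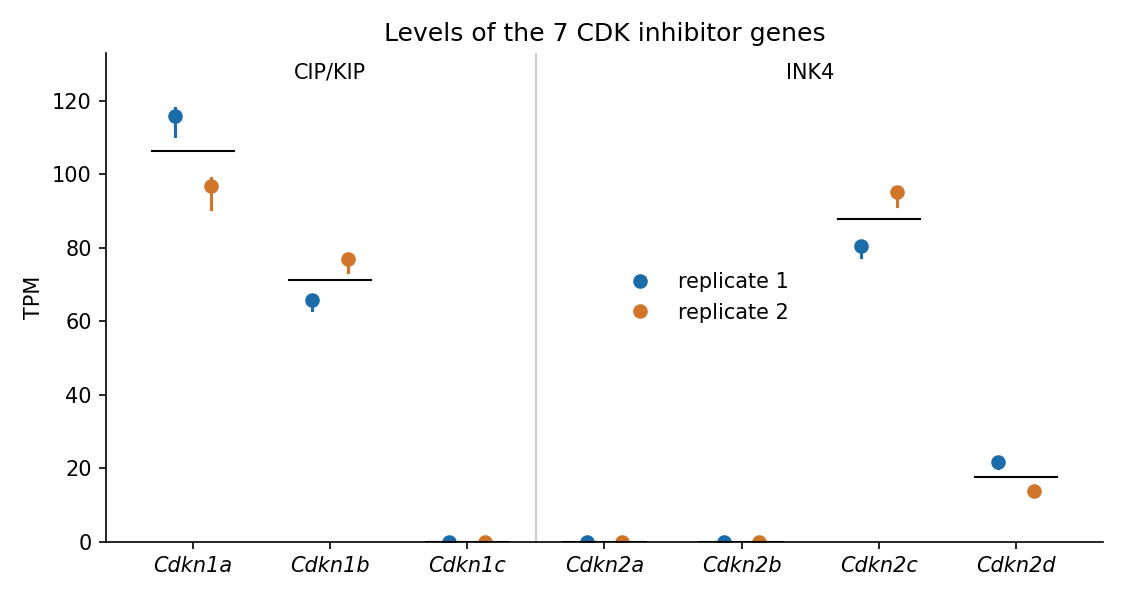
TPM of each inhibitor gene (linear axis) in replicates 1 and 2, with the authors' deposited interval as a bar on each point and the mean as a horizontal line; CIP/KIP genes stand on the left and INK4 genes on the right. Cdkn1a, Cdkn1b and Cdkn2c lie between 65.7 and 115.88, Cdkn2d lies at 21.66 and 13.84, and Cdkn1c, Cdkn2a and Cdkn2b lie at or near 0.

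Cdkn1a encodes p21, the best known target of p53 and an inhibitor of Cdk2 complexes. The gene (ENSMUSG00000023067) lies on chromosome 17, 29090976 to 29100727, plus strand (GRCm38, the assembly of mm10). Replicate 1 gave a TPM of 115.88 and replicate 2 of 96.71, with a mean of 106 ± 13.6 (SD, n = 2). It had the highest TPM of the family in both libraries, and 83.6% of the 8219 detected protein-coding genes lay below it. Both rest on the deposited transcript lengths, which are taken up below. The authors' interval for the TPM was 110.294 to 117.96 in replicate 1 and 90.5729 to 99.0206 in replicate 2, so the libraries lay apart by more than that interval.

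The 2 Cdkn1a transcripts with counts start at different first exons. The stretches before those starts are shown because the transcripts differ at both ends. The transcript Cdkn1a-202 starts at 29090979 and Cdkn1a-201 starts 2790 bases downstream, in exon 29093769 to 29093861. Each line below gives the 250 bases before the start, 5′ to 3′ on the plus strand, from the RefSeq promoter table for GRCm38.p6, with neither window holding annotated UTR. Capitals mark a GATA-type motif, a GC box or a pair of adjacent p53 half-sites.
Cdkn1a upstream start, chr17:29090729-29090978: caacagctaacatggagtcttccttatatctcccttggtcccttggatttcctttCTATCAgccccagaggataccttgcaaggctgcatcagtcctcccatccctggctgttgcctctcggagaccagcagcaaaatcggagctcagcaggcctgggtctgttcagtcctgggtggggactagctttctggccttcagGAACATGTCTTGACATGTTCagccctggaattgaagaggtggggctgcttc
Cdkn1a downstream start, chr17:29093519-29093768: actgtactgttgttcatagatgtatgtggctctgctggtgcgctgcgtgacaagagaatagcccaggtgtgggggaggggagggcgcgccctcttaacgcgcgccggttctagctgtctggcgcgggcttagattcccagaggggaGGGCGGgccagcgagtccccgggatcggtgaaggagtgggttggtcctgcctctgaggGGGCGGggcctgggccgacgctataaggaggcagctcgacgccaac
The windows differ in base composition. The upstream window held 54.0% GC and 2 CpG dinucleotides, and 18.8% of the 32851 windows in the table held fewer. The downstream window held 64.8% GC and 19 CpG, more than 80.3% of windows. A GATA-type match (AGATAA, where the first letter may also be T and the last G, on either strand) began 195 bases before the upstream start, and 26.5% of all windows hold one. The upstream window also holds 20 bases, beginning 51 bases before the start, that fit the p53 pair with 1 mismatch. Such a pair, at most 1 mismatch and no spacer, is found in 0.0761% of all windows, 25 of 32851, and in none of the other 8 windows of the family. This search was added after the sequence had been seen. The downstream window holds GC boxes (GGGCGG, either strand) 104 and 46 bases before the start, a motif in 32.7% of all windows, and an E-box (CANNTG, in 66.2% of windows) 187 bases before it. These are matches of letters, and no binding was measured.

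Most Cdkn1a message was assigned to the upstream start. Cdkn1a-202 held 85.58% of the TPM in the first library and 84.3% in the second, on average 84.9 ± 0.905% (SD, n = 2). Cdkn1a-201 held the other 14.42% and 15.7%, and Cdkn1a-203 was listed at 0 in both. The split was close in both libraries. By expected counts it was less uneven: 2976.04 and 1739.45 counts, or 66.7% and 64.7%, went to Cdkn1a-202, and 1484.96 and 947.55 counts to Cdkn1a-201. TPM divides counts by effective length, and the tables give Cdkn1a-202 only 748 bases and Cdkn1a-201 1910. The later GENCODE M21 annotation gives Cdkn1a-202 922 bases, so its TPM depends on the annotation used. The TPM of the whole gene, its place above Cdkn2c and the family ratio given below rest on that length too. None of them was recomputed with the longer one.

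The transcripts of Cdkn1a share the same coding exons and differ at both ends. Cdkn1a-201 runs 1021 bases past the end of Cdkn1a-202, with a 3′ UTR of 1332 bases against 311 (stop codon included). Of these forms, only Cdkn1a-201 holds a site for the seed shared by miR-17-5p, miR-20a-5p, miR-93-5p and miR-106b-5p. These microRNAs are known for targeting p21. GENCODE M21 also holds Cdkn1a-205, not among the transcripts listed here, whose 3′ UTR of 1337 bases carries the same site. No reads could be assigned to Cdkn1a-205, so the pairing of starts with 3′ ends rests on the annotation used. The microRNAs are shown with the seed, bases 2 to 8, in capitals, and the site with its match to that seed in capitals, from RefSeq and GRCm38.
mmu-miR-17-5p: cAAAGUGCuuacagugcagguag
mmu-miR-20a-5p: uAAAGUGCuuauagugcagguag
mmu-miR-93-5p: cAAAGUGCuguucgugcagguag
mmu-miR-106b-5p: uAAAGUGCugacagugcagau
Cdkn1a site, chr17:29099818-29099843, plus strand: agacctgaataGCACTTTggaaaaat
The match begins at base 439 of the 3′ UTR of Cdkn1a-201. Of 5237 annotated 3′ UTRs within 20% of that length, 12.1% hold the same letters, so the match alone is common. The leading transcript Cdkn1a-202 has no such match, and mature microRNAs are not measured by polyA libraries.

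Cdkn1b encodes p27, which binds cyclin E-Cdk2 and cyclin A-Cdk2. The gene (ENSMUSG00000003031) lies on chromosome 6, 134920401 to 134925513, plus strand. Its TPM was 65.7 and 76.93, a mean of 71.3 ± 7.94 (SD, n = 2), with authors' intervals of 63.1644 to 66.2141 and 73.4889 to 77.325. Replicate 2 was the higher, and 76.7% of detected protein-coding genes lay below the mean.

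Both listed Cdkn1b transcripts begin at the same base, so a single window precedes them, shown for contrast with the upstream Cdkn1a window. A GC box 61 bases before the start is in capitals.
Cdkn1b, chr6:134920151-134920400, plus strand: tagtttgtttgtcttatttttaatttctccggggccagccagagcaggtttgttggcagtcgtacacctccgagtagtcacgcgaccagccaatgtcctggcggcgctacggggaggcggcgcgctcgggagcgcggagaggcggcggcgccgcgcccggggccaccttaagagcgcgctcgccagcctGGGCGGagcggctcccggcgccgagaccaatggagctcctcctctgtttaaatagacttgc
This window held 64.4% GC and 28 CpG dinucleotides, more than 92.4% of all windows, and neither a GATA-type match nor a p53 pair.

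Cdkn1b-201 led with 87.85% and 93.79% of the TPM in replicates 1 and 2, on average 90.8 ± 4.20% (SD, n = 2). Cdkn1b-202, the rest, has the same coding exons but keeps an intron of 2159 bases inside the 3′ UTR, 134922084 to 134924242. It held 1778.59 counts in replicate 1 and 744.3 in replicate 2, or 21.4% and 11.5% of the gene's counts. Its share was lower in replicate 2, and whether its reads came from unspliced RNA was not tested.

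Both forms of Cdkn1b carry a site for the seed of miR-221-3p and miR-222-3p, which are known to target p27. The same seed matches Cdkn1c, so these lines show what the CIP/KIP pair share.
mmu-miR-221-3p: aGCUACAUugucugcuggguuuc
mmu-miR-222-3p: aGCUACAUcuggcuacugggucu
Cdkn1b site, chr6:134924420-134924445, plus strand: aaaagcattggATGTAGCattgcgca
Cdkn1c site, chr7:143458918-143458943, minus strand: acctttcgttcATGTAGCaggaaccg
The Cdkn1b match begins at base 2360 of the 3′ UTR of Cdkn1b-202, and 2159 bases, the length of the kept intron, nearer the stop codon in Cdkn1b-201. Among 3′ UTRs of like length the letters occur in 8.09% for Cdkn1b-201, 21.9% for Cdkn1b-202 and 4.27% for Cdkn1c-201. No annotated 3′ UTR of Cdkn2a, Cdkn2b, Cdkn2c or Cdkn2d holds either seed match.

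Cdkn1c encodes p57, an imprinted inhibitor expressed from the maternal copy and known for quiescence of blood stem cells. The gene (ENSMUSG00000037664) lies on chromosome 7, 143458339 to 143461050, minus strand. It had 0 counts in both libraries. A limit of 3 counts per library corresponds to a TPM of 0.0337 in replicate 1 and 0.0480 in replicate 2, and Cdkn1a was at least 3438-fold and 2014-fold higher than that limit in the same libraries.

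The imprinted domain around Cdkn1c was not silent throughout. Of 12 genes listed in or beside that domain, 3 were detected: Tssc4 at a TPM of 209.29 and 229.43, Cd81 at 122.52 and 123.39, and Nap1l4 at 56.73 and 32.4. The paternally expressed antisense RNA Kcnq1ot1, which silences Cdkn1c in cis, stood at a TPM of 0.07 and 0.04, from 305 and 132 counts. The nearest coding gene on each side, Kcnq1 and Slc22a18, stood at 0.01 and 0.01, and at 0.33 and 0.29. Phlda2, H19 and Ins2 had 0 counts in both libraries.

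Among the INK4 genes, Cdkn2c led. It encodes p18, an inhibitor of Cdk4 and Cdk6 that restrains the cycling of blood progenitors. The gene (ENSMUSG00000028551) lies on chromosome 4, 109660876 to 109667189, minus strand. Its TPM was 80.49 and 95.26, a mean of 87.9 ± 10.4 (SD, n = 2), with authors' intervals of 77.5407 to 80.8337 and 91.2812 to 95.4667. Replicate 2 was the higher, and 80.6% of detected protein-coding genes lay below the mean. Cdkn2c also had the most expected counts of the family, 9211 and 7773, against 8322 and 6478 for Cdkn1b and 4461 and 2687 for Cdkn1a, so the order by counts is not the order per length.

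Cdkn2c too has a pair of starts, 1817 bases apart. Cdkn2c-202, from the upstream start, held 95.83% and 98.7% of the TPM, a mean of 97.3 ± 2.03% (SD, n = 2), and 98.2% and 99.5% of the counts. Cdkn2c-201, from the downstream start, held 161.69 counts in replicate 1 and 42.21 in replicate 2. The forms have the same coding exons and differ in the 5′ UTR, which is 1591 bases in Cdkn2c-202 and 226 in Cdkn2c-201. The long 5′ UTR is mostly the first exon, 109665610 to 109667189.

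Cdkn2d encodes p19Ink4d, an inhibitor of Cdk4 and Cdk6, and was the other INK4 gene detected. The gene (ENSMUSG00000096472) lies on chromosome 9, 21288410 to 21291407, minus strand. Its TPM was 21.66 and 13.84 in replicates 1 and 2, with a mean of 17.8 ± 5.53 (SD, n = 2), with authors' intervals of 20.1613 to 22.5462 and 12.4734 to 14.7256. It was the lowest of the detected members in both libraries, and 46.2% of detected protein-coding genes lay below its mean. The tables list 1 transcript for it, Cdkn2d-201, so its transcript use could not be split. GENCODE M21 holds 3, and no reads could be assigned to the unlisted forms. In M21 the coding part of Cdkn2d-201 is only 150 bases, against 504 in Cdkn2c-202. Whether the reads came from a form with a longer coding part was not tested. Kri1, a ribosome biogenesis gene 440 bases away, stood at 51.17 and 35.67, also the higher in replicate 1, and whether reads of either gene were counted for the other was not tested.

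Cdkn2a encodes p16Ink4a and, from an upstream first exon in another reading frame, p19Arf, which binds Mdm2 and frees p53. The gene (ENSMUSG00000044303) lies on chromosome 4, 89274471 to 89294653, minus strand. It had 1 count in replicate 1 and 0 in replicate 2, and that count was assigned to the Arf transcript, Cdkn2a-202. The exact Poisson 95% interval for a count of 1 is 0.0253 to 5.57, and 3 counts correspond to a TPM of 0.0801 and 0.116. Neither transcript was detected by the rule above, and in replicate 2, with 0 counts, Cdkn1a was at least 831-fold higher than the value for 3 counts.

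The p16 start of Cdkn2a is shown as an undetected counterpart of the windows above. It is free of annotated UTR and has no GATA-type match, GC box, TATA box (TATAAA) or p53 pair, so no base is in capitals.
Cdkn2a p16 start, chr4:89282193-89282442, minus strand: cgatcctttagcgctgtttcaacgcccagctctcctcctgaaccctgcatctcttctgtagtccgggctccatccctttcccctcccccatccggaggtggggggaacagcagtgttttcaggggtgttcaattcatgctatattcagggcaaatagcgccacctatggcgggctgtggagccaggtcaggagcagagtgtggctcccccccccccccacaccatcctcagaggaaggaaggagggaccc
It held 60.0% GC and 7 CpG dinucleotides, more than 53.7% of all windows, against a median of 6. The upstream Cdkn1a window held fewer CpG than this one, and the downstream Cdkn1a window and the Cdkn1b window held more. Other undetected starts held more CpG than the p16 start. The window of the Arf start of Cdkn2a, with 34 bases of annotated UTR inside, held 78.4% GC and 40 CpG. It had GC boxes 48 and 14 bases before the start. The Cdkn2b window, with 7 bases of annotated UTR, held 12 CpG and no GC box. Whether composition goes with detection was not tested.

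Cdkn2b encodes p15, an inhibitor of Cdk4 and Cdk6 known as a target of TGF-beta signalling. The gene (ENSMUSG00000073802) lies beside Cdkn2a on chromosome 4, 89306299 to 89311039, minus strand, with 11645 bases between them. It had 0 counts in both libraries, where 3 counts correspond to a TPM of 0.0479 and 0.0680. Cdkn1a was at least 2422-fold and 1423-fold higher than those limits.

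The genes next to the Cdkn2a and Cdkn2b pair were also without counts or nearly so. Mtap, a widely expressed enzyme gene of methionine salvage and the nearest coding gene on the Cdkn2a side, 93.389 kb away, had 0 counts in both libraries and a limit of 0.0389 and 0.0553 TPM. Dmrta1, the nearest coding gene on the Cdkn2b side, had 0 counts and 1 count. Looking further out, at genes picked after their values were seen, the nearest detected coding genes were Klhl9 on the one side, at a TPM of 6.34 and 8.08, and Gm12666 on the other, at 14.53 and 8.88. Between them lie 3.47 Mb that wholly contain 28 protein-coding genes, Cdkn2a, Cdkn2b, Mtap and Dmrta1 included, of which 25 had 0 counts in both libraries and none had more than 1. Gm26566, which overlaps the end of Klhl9 and is not among the 28, had 2 and 4 counts. Of these 28, 8 bear type I interferon names, and all 8 had 0 counts. Many of the others carry Gm symbols and lie around the interferon gene Ifnz. Whether they are interferon genes too was not tested, so 8 may be too few. Interferon genes are known to be silent in cells that meet no virus. The stretch was not empty of reads, because the pseudogene Gm12671 held 5904.66 and 1962.33 counts. A pseudogene can take reads from its parent gene. From RNA alone, a missing stretch of chromosome and an unexpressed one cannot be told apart.

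**Figure D2:**
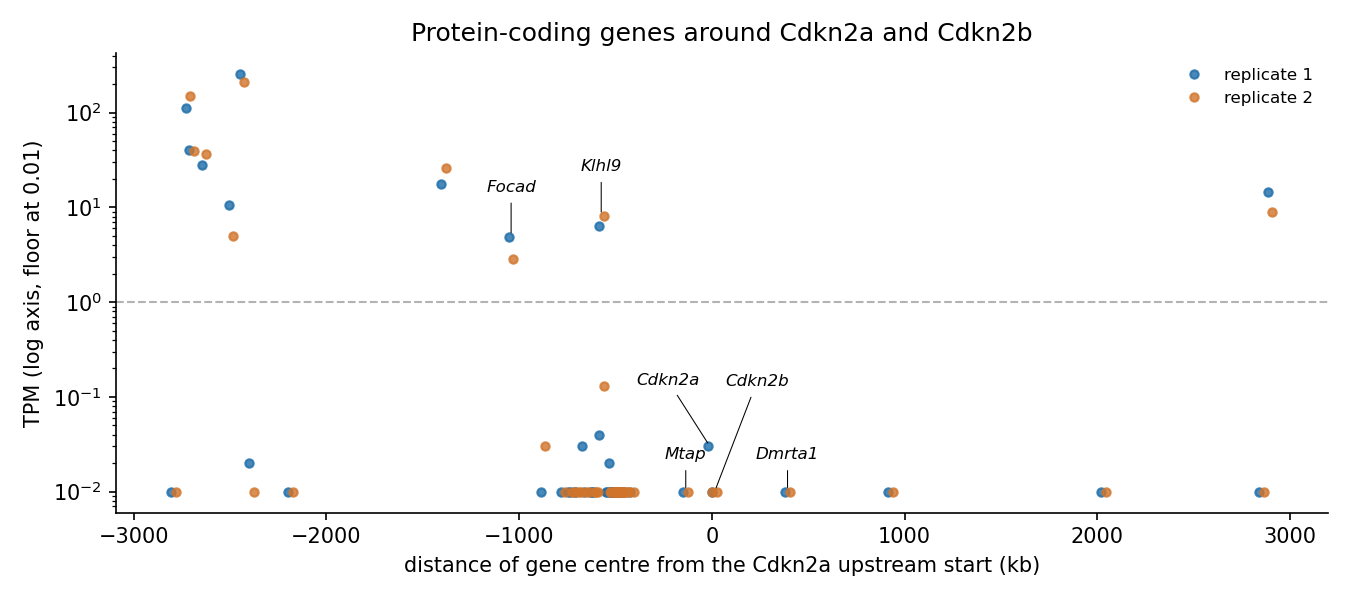
TPM (log axis, with 0 drawn at 0.01 and a dashed line at 1) of protein-coding genes by distance in kb from the start of Cdkn2a, for replicates 1 and 2. Cdkn2a, Cdkn2b, Mtap and Dmrta1 are among 28 coding genes with at most 1 count each that lie wholly between Klhl9 and Gm12666; Gm26566, which overlaps Klhl9, had 2 and 4 counts.

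In order of mean TPM the members ran Cdkn1a, Cdkn2c, Cdkn1b, Cdkn2d, Cdkn2a, then Cdkn1c and Cdkn2b at 0. Neighbours were counted as separate where the lower library of one lay above the higher library of the next, and 4 of 6 pairs were. The step from Cdkn1a to Cdkn2c was the least sure of those: the ratio of their TPM was 1.44 in replicate 1 and 1.02 in replicate 2, where the authors' intervals overlapped. That step also rests on the deposited length of Cdkn1a-202, which is shorter than in GENCODE M21, and may not hold with the longer one. Cdkn2c over Cdkn1b was 1.23 and 1.24, nearly equal in both libraries. Cdkn1b over Cdkn2d was 3.03 and 5.56. Cdkn2a, Cdkn1c and Cdkn2b could not be ordered among themselves.

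By family, the CIP/KIP genes summed to a TPM of 181.58 and 173.64, a mean of 178 ± 5.61 (SD, n = 2). The INK4 genes summed to 102.18 and 109.1, a mean of 106 ± 4.89. The ratio of INK4 to CIP/KIP was 0.563 and 0.628, a mean of 0.596 ± 0.0464, so CIP/KIP message was the more abundant per length in both libraries. Within each family the balance differed: Cdkn1a and Cdkn1b shared the CIP/KIP sum, while Cdkn2c held most of the INK4 sum.

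The libraries were then compared with each other, on expected counts scaled to library sizes by TMM, as log2 of replicate 2 over replicate 1. The values were −0.11 for Cdkn1a (95% interval −0.18 to −0.04), 0.26 for Cdkn1b (0.22 to 0.31), 0.38 for Cdkn2c (0.34 to 0.42) and −0.53 for Cdkn2d (−0.67 to −0.38). The intervals are exact and conditional and cover counting error only, and none includes 0. None of these 4 members differed by 1.5-fold, and 33.3% of the 11278 genes tested did. That share includes genes with as few as 10 counts over both libraries, far fewer than these members had. With 4 members, closer agreement than that of other genes cannot be claimed. The member nearest to 1.5-fold was Cdkn2d, 1.44-fold higher in replicate 1, whose interval reaches past 1.5-fold. Among the 5655 tested genes with a mean TPM of at least 10, the log2 ratio ran from −0.28 at the 25th percentile to 0.38 at the 75th, with 5th and 95th percentiles of −1.03 and 0.80. With the total of expected counts as the scale, or with the ratio of TPM, Cdkn2d passed 1.5-fold, at −0.74 and −0.65.

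**Figure D3:**
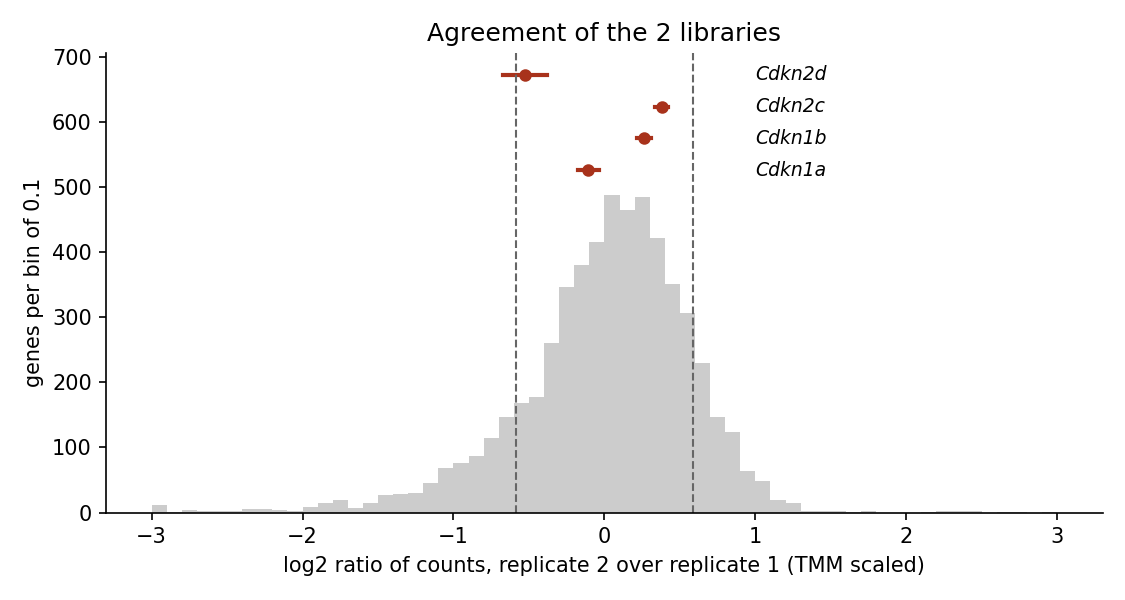
Histogram of log2 ratios of replicate 2 over replicate 1 (TMM-scaled expected counts) for tested genes with a mean TPM of at least 10 (outermost bins gather the values beyond 3 either way), with dashed lines at 1.5-fold and the 4 measured inhibitors above it as points and their exact 95% counting intervals as bars. Cdkn1a and Cdkn2d lie below 0, Cdkn1b and Cdkn2c above it, and no point reaches 1.5-fold.

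Each measured member was led by the same transcript in both libraries, at 80% or more of the gene's TPM. This holds for Cdkn1a, Cdkn1b and Cdkn2c, and trivially for Cdkn2d with its single listed transcript. Among 7070 protein-coding genes with several transcripts, 37.2% were led in this way. By share of expected counts the background was 39.5%, and only Cdkn2c, with Cdkn2d, still passed, because Cdkn1a-202 and Cdkn1b-201 fell below 80% in at least 1 library. In each of the 3 genes the leading and second transcripts encode the same protein-coding exons and differ in UTRs alone: both ends in Cdkn1a, a kept intron in Cdkn1b and the 5′ end in Cdkn2c.

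**Figure D4:**
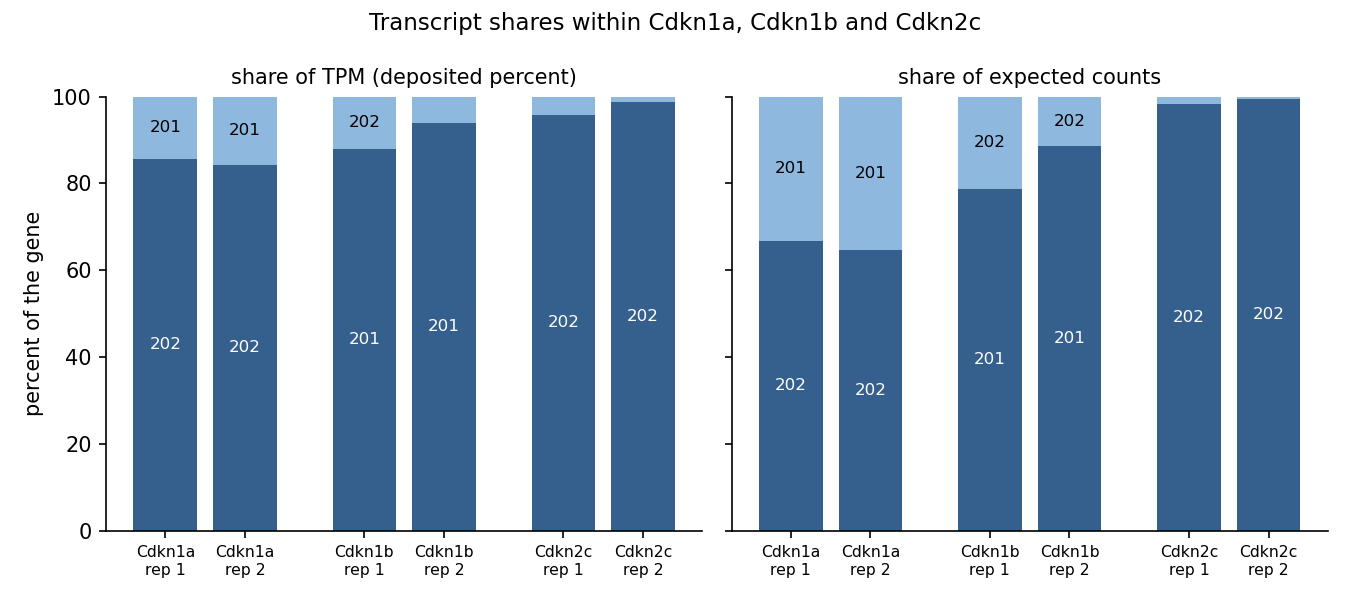
Share in percent of each gene's TPM (left panel) and of its expected counts (right panel) held by each transcript of Cdkn1a, Cdkn1b and Cdkn2c, in replicates 1 and 2. Cdkn1a-202 takes 85.58% and 84.3% of the TPM but 66.7% and 64.7% of the counts.

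The targets of the inhibitors were expressed at very different levels. All 4 CDKs of the list were detected. For this list and those that follow, the shares to set beside the counts are those over all genes. By the same rules 38.3% of protein-coding genes were detected, and 33.3% of tested genes differed by 1.5-fold between the libraries. Cdk4 stood at a TPM of 1541.6 and 1079.54, a mean of 1311 ± 327 (SD, n = 2). Cdk6, the other kinase bound by D cyclins, stood at 10.86 and 13.21. Cdk4 thus exceeded Cdk6 142-fold and 81.7-fold. The summed INK4 message was 0.0658 and 0.0998 of the summed Cdk4 and Cdk6 message. Cdk2, the main CIP/KIP target, stood at 19.99 and 22.61, and the summed CIP/KIP message exceeded it 9.08-fold and 7.68-fold. Cdk1, the mitotic kinase, stood at 48.13 and 11.76 and was the only one of the 4 that differed by 1.5-fold between the libraries, judged here and for the lists that follow by TMM-scaled counts and not by TPM. Message ratios are not ratios of protein.

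Of 9 cyclins of these kinases, 7 were detected. Among the D cyclins Ccnd3 led at 690.27 and 621.9, Ccnd2 stood at 72.68 and 63.96, and Ccnd1 had 1 count and 0 counts. The 7 inhibitors together came to 0.372 and 0.412 of the summed D cyclins, and Ccnd3 over Cdkn2c was 8.58 and 6.53. Ccna2, the S-phase cyclin, stood at 536.76 and 626.87. Cyclin E, which p27 binds with Cdk2, was less alike between the libraries: Ccne1 stood at 198.37 and 421.13, or 3.02 and 5.47 times Cdkn1b. Ccne1, Ccne2 and Ccnb2 differed by 1.5-fold between the libraries, the last of them named after its value was seen. The RB family, the substrates downstream, stood lower: Rb1 at 14.15 and 14.96, Rbl1 at 8.04 and 7.98, and Rbl2 at 3.26 and 3.93.

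**Figure D5:**
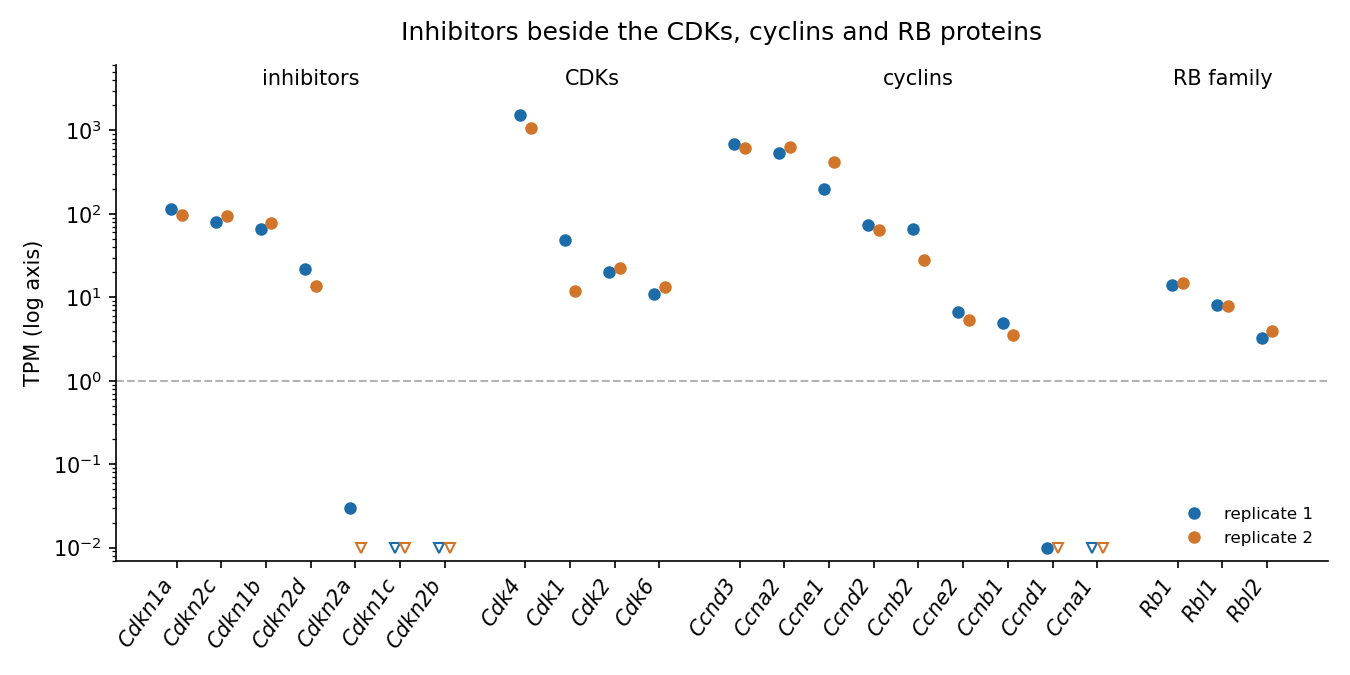
TPM (log axis) of the inhibitors, their target CDKs, the cyclins and the RB family in replicates 1 and 2, with genes listed at 0 drawn as open triangles at the lower edge. Cdk4, Ccnd3 and Ccna2 lie above every inhibitor in both libraries, and Cdk6, Cdk2 and the RB family lie below Cdkn1a, Cdkn1b and Cdkn2c.

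CIP/KIP proteins are broken down through ubiquitin ligases. The list of ubiquitin ligase genes for p21, p27 and p57 holds 10 chosen genes and had a median TPM of 14.0. Each gene of it was detected, against 38.3% of all protein-coding genes. Skp2, which recognises phosphorylated p27, had the lowest mean, at 4.08 and 3.81 (Rbx1 was lower in replicate 2), which is 0.0621 and 0.0495 of Cdkn1b. Its cofactor Cks1b stood at 88.88 and 83.76, and Cul4a, the scaffold of the ligase that clears p21 in S phase, at 160.5 and 224.32. Rbx1 and Skp1a differed by 1.5-fold between the libraries, Rbx1 at 13.98 and 2.14 and Skp1a, named after its value was seen, at 24.05 and 4.88.

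Of 13 known activators of inhibitor genes, 9 were detected, and the list's median TPM was 5.36. Trp53, which encodes p53, led at 291.54 and 273.79, and whether p53 acted on Cdkn1a in these cells was not tested. Foxo3, an activator of Cdkn1b, stood at 124.22 and 182, and Ets2, an activator of the p16 start, at 113.95 and 140.1. Smad3, which carries TGF-beta signals to Cdkn2b, and Foxo1 and Cebpa had 0 counts in both libraries. Smad4 was the 1 gene of the list that differed by 1.5-fold, at 22.08 and 39.01, and was named after its value was seen.

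Of 11 Polycomb and T-box repressors of Cdkn2a and Cdkn2b, 8 were detected, with a median TPM of 49.3. The median over all protein-coding genes was 0.03, but only 38.3% of them were detected, so that is a low mark. Among detected protein-coding genes alone, 46.2% lay below the mean TPM of Cdkn2d, 17.75. Eed stood at 166.91 and 75.75, Kdm2b at 89.62 and 92.8, and Bmi1, the classical repressor of Cdkn2a, at 90.16 and 68.93. The T-box gene Tbx2 stood at 0.31 and 0.51, and Cbx8 and Tbx3 had 0 counts. By TMM-scaled counts Rnf2, Suz12 and Tbx2 differed by 1.5-fold between the libraries, the first pair of them named after their values were seen. Eed did not on that scale, at a log2 ratio of −0.34, although its TPM values lie further apart. No chromatin mark was measured. Of the partners of p19Arf, Mdm2 stood at 34.84 and 30.13 and Npm1, which has near-identical pseudogene copies that can share its reads, at 144.64 and 46.37.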

How the data were processed

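PolyA RNA of G1E-ER4 cells was profiled in 2 libraries of 1 group. The authors deposited gene and transcript tables on genome build mm10 with GENCODE M4, per the submitters' processing notes; which aligner and quantifier made them is not given in the sources used here. Expected counts, as deposited, are estimated fragments and need not be whole. The deposited TPM and FPKM values are corrected for effective length and depth. The deposited percent values give each transcript's share of its gene's TPM. The authors' interval for TPM has no stated level.

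The members and gene lists were chosen with earlier results of these data known. All 7 members and their transcripts are named, with the 3 highest and 3 lowest genes of each list, genes set beside a member, and the nearest coding genes. Names and positions came from GENCODE M21 on GRCm38, which matched 42462 of 43346 gene rows. Promoter windows and microRNAs came from RefSeq, and motifs were searched as exact letters except the p53 pair.

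Detection means a TPM of 1 or more in each library. Expected counts were rounded and scaled with TMM in edgeR 4.0.16, for genes with at least 10 counts over both libraries, with a prior count of 0.5 for the background. Intervals are exact at 95%, and they and the limit of 3 counts cover counting error only. With 1 group no test was run. Procedures were tested on simulated data. DESeq2 1.42.0 size factors, other units, filters and thresholds, and each library alone, were the alternatives.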

Additional observations from a re-analysis of the deposited data

How the results depend on the processing

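The 4 detected members were the count under posterior mean TPM, thresholds of 0.5 and 5, the mean of both libraries, and in each library alone (4 to 4). The ratio of INK4 to CIP/KIP was 0.563 to 0.628 when either library was left out, and it was 0.862 ± 0.0649 in expected counts, which are not corrected for length. Members past 1.5-fold between the libraries numbered 0 with TMM and with DESeq2 size factors, 1 with total expected counts and 1 with the ratio of TPM, in both cases Cdkn2d. Without the filter on low counts they numbered 3, the members at 0 or 1 counts, whose ratios come from the prior count at unequal library sizes. Members led by 1 transcript numbered 4 by share of TPM, 2 by share of expected counts and 2 at a threshold of 90%. The median log2 ratio of all tested genes was −0.02 with TMM, 0.00 with DESeq2, −0.23 with total counts and −0.11 with TPM, and the 4 measured members kept their signs under each. Of all alternatives, 49 left a value the same by the rule used, 15 moved it and 0 reversed it. No paired analysis was possible because the series has 1 group. The TPM given for 3 counts is a fixed floor, and counting error at 0 or 1 counts allows more (up to 3.69 and 5.57 counts at 95%); 2 libraries of 1 sample record limit every SD.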
